A study of Mus musculus with 4 samples.

Results

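Described here are 8 genes of cardiac endothelial cells (ECs), Timp4, Car4, Aqp1, Rgcc, C1qtnf9, Btnl9, Samd5 and Tmem140, out of 31253 genes in the count matrices. They were listed as capillary identity genes that are lower on the HFpEF diet, and they were chosen by their levels in these same libraries. The values that chose them were the unique molecular identifiers (UMIs) counted per gene and summed per library over ECs of capillary, artery and vein type, HFpEF against NC. Differences between the diets are therefore given for these 8 genes as a description, without a test. The name did not hold for all of them. Btnl9 was higher, not lower, in the HFpEF capillary cells, and was higher in arterial than in capillary cells. Samd5 was higher in venous than in capillary cells, and the level of Aqp1 was about the same in both.

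The scecRNA-seq data, in which the RNA of single cardiac ECs is read with 10X Genomics 3' chemistry, come from 4 mouse libraries, NC1, NC2, HFpEF1 and HFpEF2. NC mice had a control rodent diet with 10% of its calories from fat. HFpEF mice, a model of heart failure with preserved ejection fraction, had a high-fat diet (HFD) with 60% of its calories from fat. They also had 0.5 mg/ml L-NAME, an inhibitor of nitric oxide synthases, in their water. Cells were sorted from the left ventricle by a red fluorescent reporter, R26-stop-tdTomato, that a tamoxifen-inducible Cre under the Cdh5 promoter switches on in ECs, so the sort depended on the reporter and not on the 8 genes. All mice carried this reporter and Cre and at least 1 floxed allele of Scarb1, which encodes SR-B1, as Sfl/+/RΔEC or Sfl/fl/RΔEC. The labels give the diet of each library but neither its genotype, the age of the mice nor how many mice went into it. Genotype was therefore not analysed. The study describes 4 groups of mice in this experiment, with both genotypes on each diet. The 2 libraries of a diet may thus be 1 of each genotype, which would leave no replicate of a diet and genotype. The spread between them may be technical, biological or both, and the fits by diet treat them as replicates.

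Capillary ECs of the heart carry fatty acids, water, gases and ions between blood and cardiomyocytes, and their transcriptome differs from that of arterial and venous ECs along a continuous gradient. Timp4, a secreted inhibitor of matrix metalloproteinases that is abundant in the heart, and C1qtnf9, a secreted protein related to adiponectin, are the members that leave the cell. Car4, a carbonic anhydrase held on the cell surface by a lipid anchor, and Aqp1, a water channel, act in the transport of carbon dioxide and water. Rgcc is a regulator of the cell cycle that responds to hypoxia and complement, Btnl9 is a membrane protein of the butyrophilin family, Samd5 has a sterile alpha motif, and Tmem140 is a transmembrane protein.

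In mouse genome build GRCm38 (mm10), the build of the files, Timp4 (ENSMUSG00000030317) is at chr6:115241892-115252205 on the minus strand, Aqp1 (ENSMUSG00000004655) at chr6:55336432-55348555 on the plus strand and Tmem140 (ENSMUSG00000057137) at chr6:34863146-34874946 on the plus strand. Car4 (ENSMUSG00000000805) is at chr11:84957786-84966044 on the plus strand and Btnl9 (ENSMUSG00000040283) at chr11:49165585-49187159 on the minus strand. Rgcc (ENSMUSG00000022018) is at chr14:79288756-79301645 on the minus strand and C1qtnf9 (ENSMUSG00000071347) at chr14:60768134-60780869 on the plus strand. Samd5 (ENSMUSG00000060487) is at chr10:9622936-9675208 on the minus strand. All 8 are protein-coding, and none overlaps a gene annotated on its own strand. On the opposite strand Timp4 overlaps Syn2 and Gm17482, C1qtnf9 overlaps Mipepos, Samd5 overlaps Gm48760 and Tmem140 overlaps Cyren.

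The 250 bases before the start of 3 of the genes are printed 5′ to 3′ on the strand of the gene, from RefSeq for GRCm38.p6, because Timp4 with Aqp1 had the highest rank correlation of all member pairs over single cells and Btnl9 with Aqp1 the lowest. Capitals mark matches, on either strand, to short motifs of factors known in ECs. The motifs were caggaa for ETS factors, ccaccc for Krüppel-like factors (KLF) and tgggaa for RBPJ, the DNA-binding partner of Notch, of which the first and last share the letters ggaa. The windows are chr6:115252206-115252455 for Timp4, chr6:55336049-55336298 for Aqp1 and chr11:49187090-49187339 for Btnl9. They are set by RefSeq starts, which are not always the starts of the gene positions given above. The Aqp1 window ends short of the start given there, and the Btnl9 window reaches into the gene.
Timp4: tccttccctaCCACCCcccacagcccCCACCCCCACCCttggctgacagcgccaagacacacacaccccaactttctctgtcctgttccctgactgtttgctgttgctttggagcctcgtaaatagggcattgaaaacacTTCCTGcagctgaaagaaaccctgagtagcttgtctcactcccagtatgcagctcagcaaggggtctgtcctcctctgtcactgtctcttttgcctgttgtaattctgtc
Aqp1: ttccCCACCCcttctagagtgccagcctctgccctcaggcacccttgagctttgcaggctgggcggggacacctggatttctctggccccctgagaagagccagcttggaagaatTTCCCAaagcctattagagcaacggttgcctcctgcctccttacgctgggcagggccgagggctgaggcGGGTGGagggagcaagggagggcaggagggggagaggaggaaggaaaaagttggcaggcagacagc
Btnl9: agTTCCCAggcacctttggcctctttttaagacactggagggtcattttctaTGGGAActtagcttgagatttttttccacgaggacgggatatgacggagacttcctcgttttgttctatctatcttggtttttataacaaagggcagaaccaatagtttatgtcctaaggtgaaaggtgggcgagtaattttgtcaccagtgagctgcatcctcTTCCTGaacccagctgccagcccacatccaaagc
RefSeq windows were found for all 8 genes. The ETS letters were in 3 of the 8 (Timp4, C1qtnf9 and Btnl9) and in 25.7% of 32851 windows of the same length before mouse gene starts. KLF letters were in 3 of the 8 (Timp4, Aqp1 and Rgcc) and in 28.1% of all windows, and RBPJ letters in 3 (Car4, Aqp1 and Btnl9) and in 21.6% of all windows. A GATA factor motif, agataa, was in 0 of the 8 windows and in 9.99% of all windows. For SOX factors the letters searched were aacaat, found in 0 of the 8 and in 9.42% of all. For the NR2F nuclear receptors, known from venous ECs, they were aggtca, found in 0 of the 8 and in 14.02% of all. Samd5 and Tmem140 held none of the 6 motifs. No motif was shared by more than 3 of the 8 genes, and a match is only a run of letters.

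Of 41843 deposited cells, 40154 had more than 200 genes and under 20% mitochondrial UMIs, and 33510 of these had at least 3 UMIs of the EC genes Pecam1, Cdh5, Egfl7 and Cldn5. Cells were called arterial by at least 2 UMIs of Hey1, Gja5 and Sema3g together, venous by at least 2 UMIs of Selp and Vwf, and capillary with at most 1 UMI of either set, which gave 28113 capillary, 4493 artery and 878 vein cells. NC cells held more UMIs, with a median of 3644 and 4035.5 per deposited cell against 1699 and 1577 in the HFpEF libraries, and an arterial cell with few UMIs passes the capillary gate more easily. Capillary cells made up 76.4% and 78.2% of ECs in NC and 90.3% and 87.4% in HFpEF. Pairs of libraries shared 10 to 42 cell barcodes. In capillary cells, 4 of 4 hemoglobin genes were detected in every library and their summed level was 350.4 to 456 CPM (UMIs of a gene scaled to 1e+06 UMIs of the same cells) in NC and 880 to 3081 CPM in HFpEF. The 4 cardiomyocyte genes summed to 52.8 to 74.97 CPM in NC and 68.7 to 219 CPM in HFpEF, the 4 fibroblast genes to 12.3 to 16.5 and 30.5 to 46.1 CPM, and the 7 mural genes to 328 to 517 and 379.9 to 660 CPM. In the same capillary cells all 3 T cell markers were at 0 in NC1 and all 3 adipocyte markers at 0 in HFpEF1. Scarb1, the floxed gene, was at 109 CPM in NC1, 47.5 CPM in NC2, 109.8 CPM in HFpEF1 and 51.4 CPM in HFpEF2, so it differed between the libraries of each diet and not between the diets.

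In capillary cells, 7 of the 8 genes were lower in both HFpEF libraries than in both NC libraries, and Btnl9 was higher in both. Timp4 differed most, with HFpEF at 41.3% of the NC mean. The background is wide, since both HFpEF libraries lay below both NC libraries for 24.8% and above them for 24.7% of the 12943 genes tested. The fitted log2 fold change was below 0 for 50.6% of those genes, and with edgeR's quasi-likelihood test 4 of them (0.0309%) passed an adjusted p of 0.05, 2 in each direction, and 16 to 129 did when any 1 library was left out. The median log2 fold change of the 8 genes was -0.53, with a range from -1.29 to 0.40, against a median of -0.0042 over all genes. This contrast chose the genes, so nothing is read from these counts. Artery markers moved with the diet in the same cells. The 6 of them, all detected, summed to 69.6 and 70.8 CPM in NC1 and NC2, and to 123 and 130.1 CPM in HFpEF1 and HFpEF2, and their part in the levels of Aqp1 and Btnl9 was not tested.

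Among the secreted members, Timp4 was at 1457 CPM in NC1, 1039.8 CPM in NC2, 564 CPM in HFpEF1 and 467 CPM in HFpEF2. The diets did not overlap, but NC1 stood well above NC2, and the log2 fold change of -1.29 (SE 0.19) was the 34th lowest of all genes. C1qtnf9 was at 464 CPM in both NC libraries, 356 CPM in HFpEF1 and 287 CPM in HFpEF2, a level in HFpEF of 69.3% of that in NC (log2 fold change -0.54, SE 0.13). The NC libraries were nearly equal for this gene, and HFpEF2 was the lowest. Car4 was at 486 and 467 CPM in NC1 and NC2 and at 326 and 359 CPM in HFpEF1 and HFpEF2, so the HFpEF mean was 71.9% of the NC mean (log2 fold change -0.49, SE 0.10). Aqp1 was at 2070.1 and 2100.5 CPM in the NC libraries, 1472 CPM in HFpEF1 and 1147 CPM in HFpEF2, or 62.8% of NC (log2 fold change -0.68, SE 0.15). For the water channel, as for C1qtnf9, the NC libraries agreed closely and HFpEF2 was lower than HFpEF1.

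Rgcc was at 2650.4 CPM in NC1, 2469 CPM in NC2, 1982 CPM in HFpEF1 and 1619.8 CPM in HFpEF2 (log2 fold change -0.52, SE 0.14). Its HFpEF mean was 70.35% of the NC mean, and the diets did not overlap. Tmem140 was at 200.2, 225, 157 and 141 CPM in NC1, NC2, HFpEF1 and HFpEF2, a mean in HFpEF of 70.0% of NC (log2 fold change -0.52, SE 0.11). Samd5, the member with the fewest UMIs, was at 35.0, 27.7, 24.6 and 14.6 CPM in the same order, from 205 UMIs in HFpEF1 to 732 in NC1. NC2 and HFpEF1 were close to each other for Samd5, so the order of the diets rests on a small gap (log2 fold change -0.74, SE 0.25). Btnl9 went the other way, at 429 and 439 CPM in NC1 and NC2, 476 CPM in HFpEF1 and 676 CPM in HFpEF2 (log2 fold change 0.40, SE 0.16). Only HFpEF2 stood clearly above the NC libraries, and without HFpEF2 the log2 fold change of Btnl9 was 0.14.

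**Figure D1:**
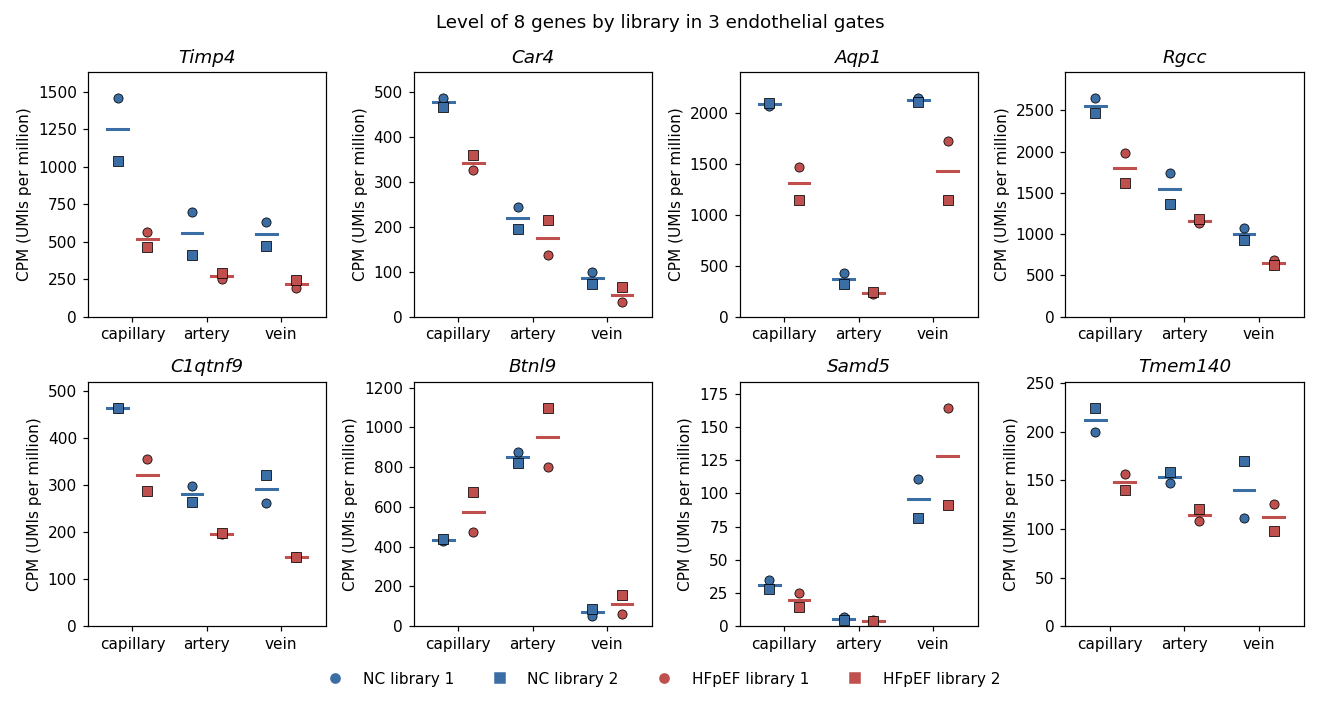
Level in CPM of each of the 8 genes (y axis, linear, from 0) in the capillary, artery and vein gates (x axis), with 1 point for each of the 4 libraries and a bar at the mean of each diet. Timp4 separates the diets in all 3 gates, from 467 to 1457 CPM in capillary cells, whereas Btnl9 is highest in the artery gate and Samd5 in the vein gate.

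Arterial cells showed the same 7 genes at lower mean levels in HFpEF, with 5 that did not overlap between the diets. Over all genes tested in artery cells, 23.4% lay lower and 21.2% higher in both HFpEF libraries. Timp4 was at 695 and 413 CPM in the NC artery cells and at 250.5 and 287 CPM in HFpEF, Rgcc at 1737 and 1365 CPM against 1129.9 and 1179 CPM, and C1qtnf9 at 299 and 263 CPM against 195 and 199 CPM. For Aqp1 the NC artery cells held 425 and 317 CPM, and the HFpEF ones 217 and 244 CPM. Car4, Samd5 and Btnl9 overlapped, and Samd5 rested on 5 to 48 UMIs per library. The median log2 fold change of the 8 in artery cells was -0.45, and 2 of 11567 genes (0.0173%) passed the test there. These values were not stable. In artery cells of 1000 to 2000 UMIs the log2 fold change turned to 1.56 for Aqp1, 0.40 for Car4 and 0.14 for Rgcc, and Car4 was at 0.46 with cells reduced to 1000 UMIs before gating. The Btnl9 value of 0.17 was -0.07 without HFpEF2.

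In venous cells Timp4 was at 630.1 and 473 CPM in NC against 192 and 244 CPM in HFpEF, and C1qtnf9 at 262 and 321 CPM against 148 and 146 CPM. Car4, Aqp1 and Rgcc also did not overlap, where 20.5% of all genes lay lower and 20.4% higher in both HFpEF libraries. Btnl9, Samd5 and Tmem140 overlapped. The HFpEF mean was above the NC mean for Btnl9 and Samd5, but the log2 fold change of Btnl9 was -0.18 without HFpEF2, and that of Samd5 was -0.04 without NC2 and -0.11 without HFpEF1. HFpEF1 had only 62 vein cells, from which 6 UMIs of Car4 and 11 of Btnl9 were counted. The median log2 fold change was -0.59, and 33 of 8981 genes (0.367%) passed the test. Timp4 was lower in each vessel type, at log2 fold changes of -1.29, -1.03 and -1.31 in capillary, artery and vein cells. The artery value was -0.59 without NC1 and -0.33 in cells of 1000 to 2000 UMIs, and the vein value was -0.70 in cells reduced to 1000 UMIs. Whether these differ from each other was not tested. Markers in vein cells also moved with the diet. The 3 endocardial genes summed to 1171 and 1116 CPM in NC1 and NC2 and to 576 and 663 CPM in HFpEF1 and HFpEF2. Selp was at 274 and 96.9 CPM in NC against 746 and 576 CPM in HFpEF. The part of these markers in the diet differences of vein cells was not tested.

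How far the 8 genes mark capillary cells is a comparison within libraries, which the diets did not enter. It was fitted on 12 sums, 3 gates in each of 4 libraries, with the library as a block, and 12400 genes were tested by the quasi-likelihood method of edgeR, with p-values adjusted over all of them (Benjamini-Hochberg). Since the genes were listed as capillary genes with results of these data known, the direction is not independent evidence of the list. Against artery cells, 7 of the 8 genes were higher in capillary cells and Btnl9 was lower, where 12.1% of all genes were higher and 15% lower. Without the TMM scaling factors the split over all genes was 1083 higher and 2530 lower in place of 1504 and 1860, and no member changed its call. Against vein cells, 6 of the 8 were higher and Samd5 was lower, where 13% of all genes were higher and 14.9% lower. Markers of other cell types moved with these gates. The 7 mural genes summed to 1692 to 2976 CPM in artery cells, and in vein cells 3 endocardial genes summed to 576 to 1171 CPM and the 4 fibroblast genes to 398 to 952 CPM, against 14.1 to 30.2 and 12.3 to 46.1 CPM in capillary cells. Their part in the differences between gates was not tested, beyond the fits without cells rich in hemoglobin or carrying markers of non-endothelial or lymphatic cells (endocardial markers were not among them), in which no member but Aqp1 changed direction or call. The split over all genes against vein cells was 1611 higher and 1847 lower with the factors and 1231 and 2155 without them.

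Aqp1 showed the widest gap to artery cells, with log2 ratios of 2.28, 2.73, 2.76 and 2.23 in NC1, NC2, HFpEF1 and HFpEF2, and a fitted log2 fold change of 2.54 (SE 0.08, adjusted p = 3.35e-14). All 4 libraries were alike. Against vein cells its ratios were -0.05, -0.0032, -0.23 and 0.0080, and the fitted difference of 0.02 (SE 0.08, adjusted p = 0.882) was smaller than the spread between libraries. Aqp1 therefore marked capillary and venous cells together against arterial cells. This difference to vein cells changed sign or call with the setting, from -0.15 to 0.32, and passed the test with stricter gates (0.23, adjusted p = 0.0317) and with every cell reduced to 1000 UMIs (0.32, adjusted p = 0.0185).

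Btnl9 was the reverse. It was lower in capillary than in artery cells by log2 ratios of -1.03, -0.90, -0.75 and -0.70 (fitted log2 fold change -0.78, SE 0.09, adjusted p = 5.30e-07), and higher than in vein cells by 3.01, 2.34, 2.96 and 2.09 (fitted 2.51, SE 0.12, adjusted p = 3.02e-12). Its levels thus stepped down from artery to capillary to vein in all 4 libraries. Samd5 stepped the other way. It was higher in capillary than in artery cells (log2 fold change 2.34, SE 0.19, adjusted p = 5.84e-09) and lower than in vein cells (-1.95, SE 0.15, adjusted p = 3.48e-09), with 4.01 to 6.97 CPM in artery and 81.4 to 164 CPM in vein cells.

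The other 5 members were highest in capillary cells in every library. Car4 was 1.119 log2 units above artery cells (SE 0.08, adjusted p = 1.04e-09) and 2.59 above vein cells (SE 0.11, adjusted p = 4.44e-13), with 6 to 127 UMIs per library in vein cells. Timp4 was higher by 1.14 (SE 0.08, adjusted p = 9.04e-10) and 1.21 (SE 0.09, adjusted p = 1.67e-09). Rgcc was higher by 0.76 (SE 0.06, adjusted p = 7.72e-09) and 1.47 (SE 0.07, adjusted p = 1.13e-12), and C1qtnf9 by 0.78 (SE 0.08, adjusted p = 2.35e-07) and 0.87 (SE 0.10, adjusted p = 4.54e-07). Tmem140 had the smallest differences, 0.48 (SE 0.07, adjusted p = 1.34e-05) and 0.63 (SE 0.09, adjusted p = 1.29e-05). In cells of 1000 to 2000 UMIs alone the Tmem140 differences were 0.37 and 0.51 and did not pass (adjusted p = 0.233 and 0.409).

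**Figure D2:**
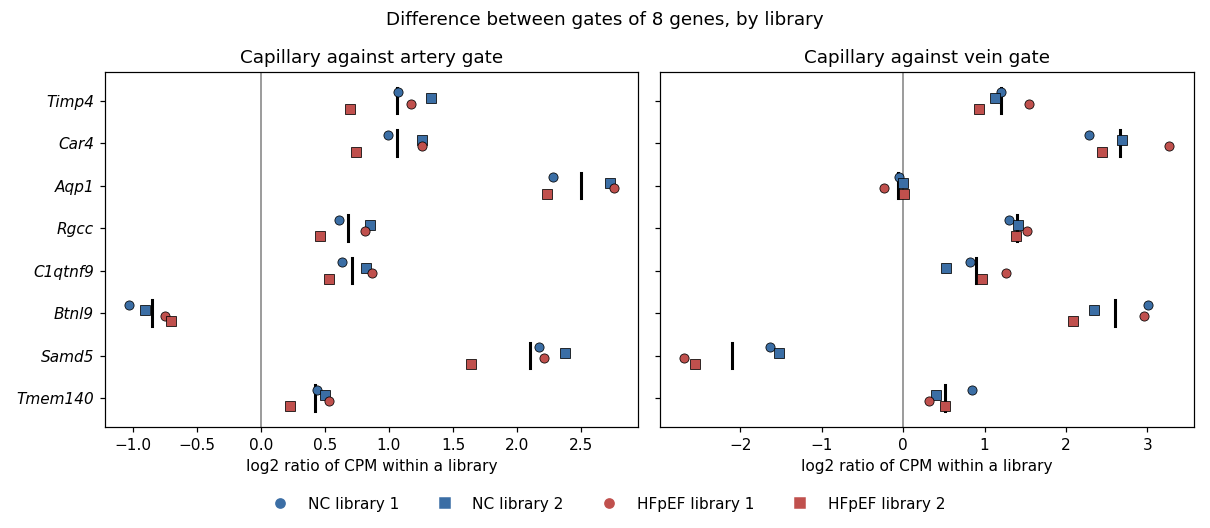
log2 ratio of the CPM of capillary cells to that of artery cells (left) and vein cells (right) within a library, for each of the 8 genes (y axis), with 1 point per library and a black bar at the mean of 4. Btnl9 alone of the 8 lies below 0 on the left (mean -0.85), and Samd5 lies far below 0 on the right (mean -2.10), with Aqp1 near 0 (mean -0.07).

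The same gradients were present among cells that all passed the capillary gate. Cells were reduced at random to 1000 UMIs each. Capillary cells were split into those left with an arterial and no venous marker UMI, those with a venous and no arterial UMI, and those with neither. Markers here were the gate genes with Gja4, Fbln5 and Bmx added for arteries and Nr2f2, Ackr1 and Lrg1 for veins. A cell in the capillary gate may thus carry arterial or venous UMIs that the gate does not count. Aqp1 was at 715, 659, 312 and 349 CPM in capillary cells with an arterial UMI in NC1, NC2, HFpEF1 and HFpEF2. In cells with a venous UMI it was at 2929.7, 2813, 1734 and 1629.5 CPM, in each library above cells with neither, which were at 1215 to 2139 CPM. Btnl9 was at 866, 866, 769.7 and 1019.7 CPM with an arterial UMI and at 146, 318, 266 and 413 CPM with a venous UMI. Samd5 was at 3.80 to 11.7 CPM with an arterial UMI and at 32.3 to 91.9 CPM with a venous UMI. These Samd5 levels rest on 2 to 5 and on 4 to 26 UMIs per library, with 4 on each side in HFpEF1. The CPM of the arterial and venous sides did not overlap for Aqp1, Btnl9 or Samd5, for Samd5 on these few UMIs. Capillary cells with an arterial UMI were 351 of 4906 in NC1 and 1317 of 11914 in HFpEF2.

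Car4 was highest in cells with neither marker in every library, though by a small gap to the venous side in NC. It was at 505 to 513 CPM in the NC cells with neither marker, 376 to 402 CPM with an arterial UMI and 459 to 479.8 CPM with a venous UMI. In HFpEF it was at 378 to 389, 230.3 to 309.8 and 113 to 268 CPM, where the 113 CPM of HFpEF1 rests on 14 UMIs. The venous levels of NC1 and NC2 rest on 85 and 95 UMIs. Rgcc was likewise highest with neither marker in every library. In NC1 it was at 2809 CPM with neither, 2268 CPM with an arterial and 2043 CPM with a venous UMI. The threshold of the artery gate counts UMIs of Hey1, Gja5 and Sema3g only. Across it, the median over the 4 libraries of Aqp1 was 1958 CPM in cells with 0 of these artery UMIs, 816 with 1, 509 with 2 and 194 with 3 or more. Btnl9 had medians of 415, 687, 904 and 869 CPM in the same cells. From 0 to 2 artery UMIs both levels changed by steps, so cells just inside the capillary gate were between those far inside and those just outside. With 3 or more artery UMIs Aqp1 was lower still, while Btnl9 did not rise further. Cells with 2 EC UMIs, just under the EC threshold, had a median of 524 CPM of Timp4 and 1780.1 CPM of Rgcc, against 664.5 and 1911 CPM in cells with 3. The libraries did not share this step for Timp4. With 2 EC UMIs it was at 1177, 533, 514 and 482 CPM in NC1, NC2, HFpEF1 and HFpEF2. With 3 it was at 1177, 765, 564 and 444 CPM.

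UMIs per cell differed between the diets. For some members the diet difference shrank among cells of 1000 to 2000 UMIs, but this depended on the depth chosen. In capillary cells, 43.8% and 50.7% had 4000 UMIs or more in the NC libraries, against 6.44% and 13.6% in HFpEF. Cells of at least 1000 and under 2000 UMIs were 9.99% and 8.26% of capillary cells in NC1 and NC2. In HFpEF1 and HFpEF2 they were 47.0% and 39.5%, so a comparison at this depth sets a small, shallow part of the NC cells against a large part of the HFpEF cells. Among capillary cells of 1000 to 2000 UMIs, the median log2 fold change of the 8 genes was -0.30 in place of -0.53. Timp4 was at 1395, 1010.2, 606 and 505 CPM in NC1, NC2, HFpEF1 and HFpEF2, an HFpEF mean of 46.2% of NC, so its difference was nearly as large at matched depth. C1qtnf9 stood at 72.9%, Tmem140 at 77.1% and Car4 at 82.2% of NC, without overlap, where 25% of 9201 genes lay lower and 19.7% higher in both HFpEF libraries. Samd5 stood at 67.1% of NC, from 20.6 and 20.8 to 14.2 and 13.6 CPM, where the NC values rest on 16 and 13 UMIs. In cells of at least 2000 and under 4000 UMIs Samd5 overlapped, at 32.0 and 25.2 CPM in NC against 29.1 and 14.1 CPM in HFpEF. It also overlapped in cells of 500 to 1000 and of 4000 to 8000 UMIs.

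Aqp1 and Rgcc overlapped at this depth. Aqp1 was at 1412 and 1647 CPM in NC against 1445 and 1078 CPM in HFpEF, or 82.5% of NC, and Rgcc at 2474 and 2028.5 CPM against 2202 and 1745 CPM, or 87.7%. Btnl9, at 649.7 and 690.03 CPM in NC against 540 and 712 CPM in HFpEF, or 93.4% of NC, was no longer higher in HFpEF. Cells of at least 2000 and under 4000 UMIs were 43.7% and 38.4% of capillary cells in NC and 35.5% and 30.9% in HFpEF. There Rgcc was at 2915 and 2845 CPM in NC against 1936 and 1633 CPM in HFpEF. Car4 was at 546 and 578 against 300 and 366 CPM, and Tmem140 at 236 and 264 against 151 and 142 CPM. Btnl9 and Samd5 overlapped there. The share of all genes without overlap was not taken in this class. In cells of at least 4000 and under 8000 UMIs, Aqp1 was at 2190.2 and 2152 CPM in NC against 1362 and 1215 CPM in HFpEF, and Btnl9 at 387 and 411 CPM against 427 and 655 CPM. NC cells of this depth had more Aqp1 and less Btnl9 than the shallow NC cells. How much of the diet difference of these genes goes with depth was not tested further.

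**Figure D3:**
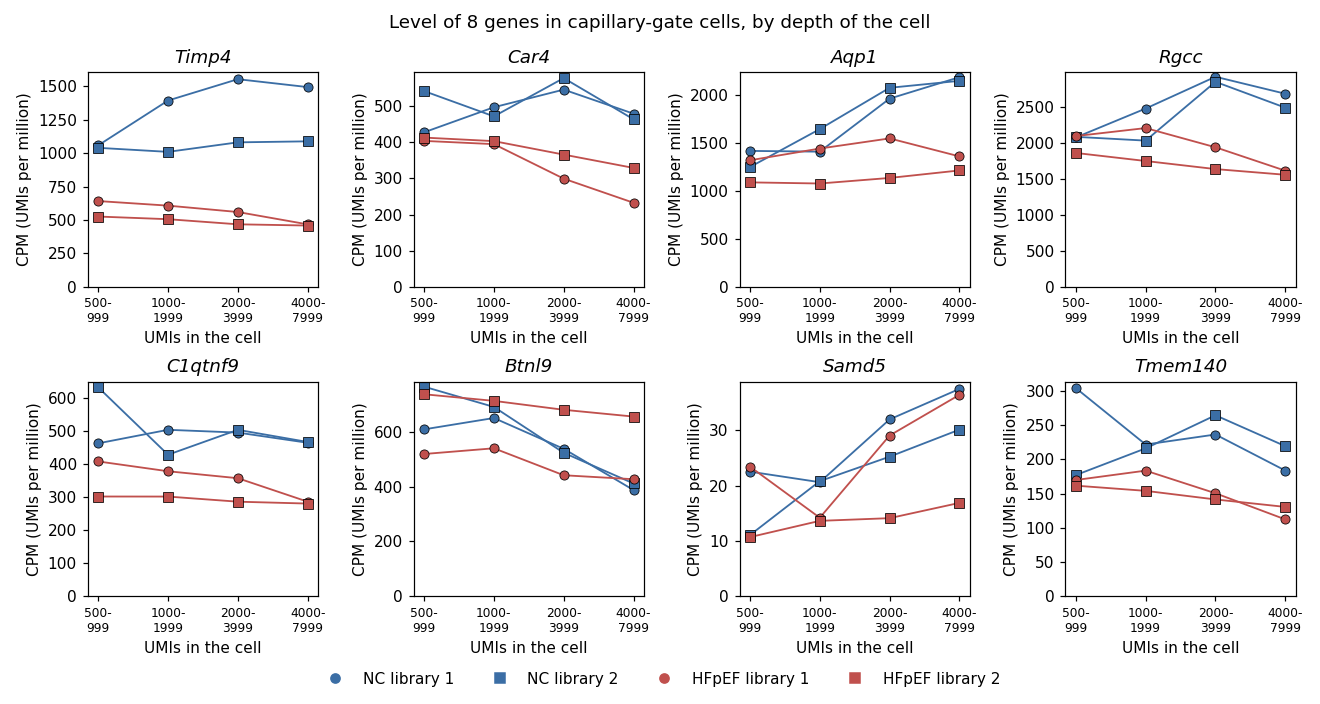
Level in CPM of each gene (y axis, from 0) in capillary cells of 4 classes of UMIs per cell (x axis), with 1 line per library. Timp4 stays apart by diet in all 4 classes, while Aqp1, Rgcc and Btnl9 of the NC libraries move with depth and meet the HFpEF libraries in the shallow classes. Samd5 overlaps between the diets in all classes but that from 1000 to 2000 UMIs.

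Other quantities that differed between the diets were set beside these levels. The median log2 fold change of the 8 was -0.51 without cells rich in hemoglobin or carrying markers of other cell types, and -0.45 with each cell reduced to 1000 UMIs. The heat shock genes Hspa1a and Hspa1b were at 1743 to 2763 and 1023 to 1992 CPM in NC capillary cells and at 5539.9 to 6581 and 4036 to 5625 CPM in HFpEF, and the 11 stress and dissociation genes together at 21378 to 24291 CPM in NC and 30292 to 30553 CPM in HFpEF. That sum includes Hspa1a and Hspa1b, and the list did not move as a whole. Hspb1, Dnajb1 and Nr4a1 were also higher in both HFpEF libraries, and Junb was lower in both. Fos, Fosb, Jun, Egr1 and Atf3 overlapped between the diets. Median mitochondrial shares were 6.96% and 6.33% in NC and 8.27% and 5.84% in HFpEF, without a split by diet. The part of stress genes in the diet difference was not tested.

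Single cells showed the diet difference of Timp4 as fewer cells with a UMI. With every cell at 1000 UMIs, Timp4 was detected in 63.4% (95% exact Clopper-Pearson interval 62.1 to 64.8%) of 4906 NC1 and 53.2% (51.8 to 54.6%) of 4751 NC2 capillary cells. The share was 35.4% (33.8 to 37.0%) of 3575 cells in HFpEF1 and 30.9% (30.1 to 31.8%) of 11914 in HFpEF2. Before the reduction it was 86.1%, 80.6%, 51.8% and 49.4%. Mural cells (pericytes and smooth muscle cells), taken as cells from outside the endothelium, gave 17.7%, 4.40%, 9.88% and 10.5% at the same depth, from 62 to 200 cells, and B cells gave 0 of 11 in NC2, 0 of 7 in HFpEF1 and 1 of 28 in HFpEF2. These intervals cover counting error only. Btnl9 was detected in 30.5%, 31.6%, 33.5% and 42.8% of capillary cells, and in 11.3%, 8.79%, 17.3% and 23.5% of mural cells. Rgcc was found in 73.8% to 84.9% of capillary and 7.69% to 30.9% of mural cells. Samd5 was found in 1.33% to 3.02% of capillary cells and in 1 of 81 mural cells in HFpEF1, with 0 of 62, 0 of 91 and 0 of 200 in the other libraries.

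A capillary cell of 1000 UMIs held a median of 7 UMIs of the 8 genes together in NC1 and NC2, 5 in HFpEF1 and 4 in HFpEF2. At least 4 of the 8 genes were detected in 45.6% and 43.1% of NC cells and in 26.9% and 22.6% of HFpEF cells. None of the 8 was detected in 1.61% and 2.23% of NC cells and in 3.66% and 3.80% of HFpEF cells. The cells richest in these UMIs were lower too, with a 90th percentile of 14 and 13 UMIs in NC and 10 and 9 in HFpEF, and the 10th percentile was 3 and 2 in NC and 1 in both HFpEF libraries.

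Members did not vary as 1 unit from cell to cell. Across capillary cells at 1000 UMIs, 21 of 28 pairs of members had a Spearman's rho above 0 in NC1 and NC2 and 18 of 28 in HFpEF1 and HFpEF2, with medians of 0.04, 0.04, 0.03 and 0.02. These are descriptions across cells of 1 library, which share its handling and sparse counts. Timp4 and Aqp1 had the highest rho, 0.25, 0.28, 0.23 and 0.16 in NC1, NC2, HFpEF1 and HFpEF2. Car4 and Rgcc were at 0.12, 0.15, 0.10 and 0.11. Aqp1 and Btnl9, whose upstream windows are printed above with that of Timp4, had the lowest rho, -0.27, -0.28, -0.27 and -0.26, nearly the same in all 4 libraries.

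**Figure D4:**
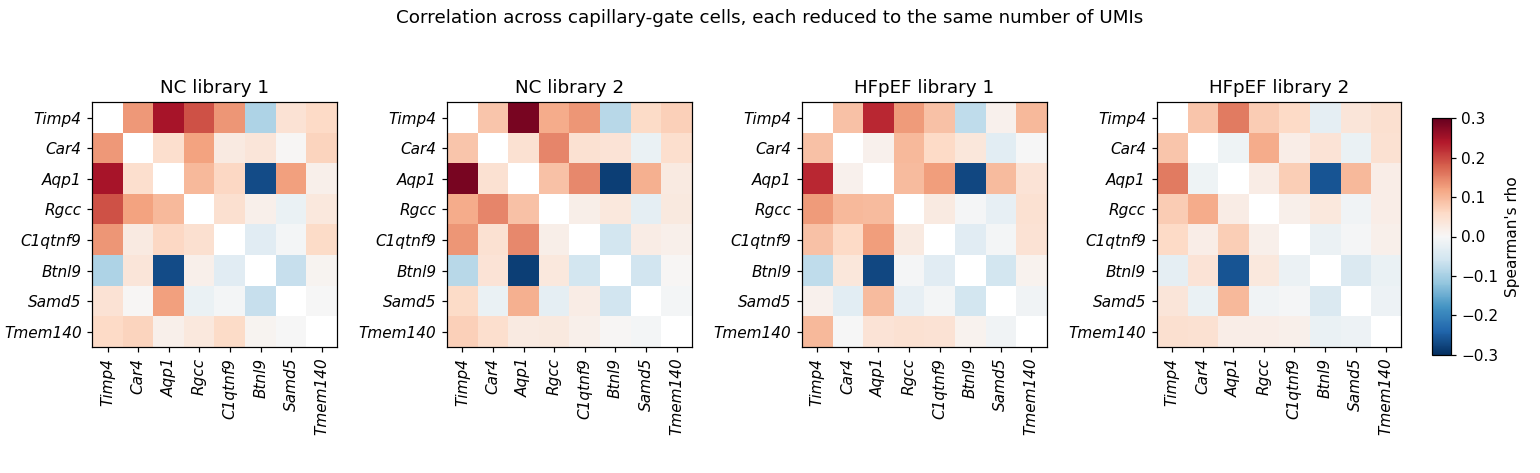
Spearman's rho (colour scale from -0.3 to 0.3) for each pair of the 8 genes across capillary cells reduced to 1000 UMIs each, with 1 panel per library. The darkest cells in every panel are Aqp1 with Timp4 (0.16 to 0.28) and Aqp1 with Btnl9 (-0.28 to -0.26).

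Capillary cells also differ in state, and 3 states were marked by genes other than the 8, each state by at least 1 UMI of 3 genes in cells reduced to 1000 UMIs. Apln, Pgf and Esm1 are known from angiogenic tip cells, Il6, Adamts4 and Plaur from activated ECs, and Ifit1, Ifit3 and Rsad2 from the response to interferon. Tip genes were found in 2.36%, 2.76%, 3.19% and 4.20% of capillary cells in NC1, NC2, HFpEF1 and HFpEF2, activation genes in 8.32%, 5.91%, 10.7% and 16.2%, and interferon genes in 21.1%, 29.6%, 23.4% and 27.2%. Cells with and without the genes were compared within libraries by edgeR's quasi-likelihood test with the library as a block, so the diet contrast that chose the members did not enter. A cell with a UMI is not all of a state, and a cell without one may belong to it.

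Cells with a tip gene had lower levels of 6 of the 8 genes, where 2.67% of 10166 genes were lower and 1.74% higher, and all 8 fitted values were below 0 with a median of -0.77 against -0.07 over all genes. Timp4 was at 845 CPM in cells with and 1527 CPM in cells without a tip gene in NC1, at 573 and 1080.3 CPM in NC2, 263 and 591 CPM in HFpEF1 and 304 and 488 CPM in HFpEF2 (log2 fold change -0.97, SE 0.10, adjusted p = 7.21e-18). All 4 libraries showed it. Car4 was lower, at a log2 fold change of -0.94 (SE 0.12, adjusted p = 1.35e-11), Aqp1 at -0.81 (SE 0.09, adjusted p = 1.49e-16) and Rgcc at -0.73 (SE 0.09, adjusted p = 9.40e-15), each also in 4 of 4 libraries. C1qtnf9 was at 509 and 484 CPM in NC1, 419.9 and 477 CPM in NC2, 316 and 371 CPM in HFpEF1 and 302 and 294 CPM in HFpEF2, which did not pass (-0.15, SE 0.11, adjusted p = 0.64). Whether C1qtnf9 differs from Timp4 in this was not tested.

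Btnl9 (-0.42, SE 0.11, adjusted p = 0.00434) and Tmem140 (-0.49, SE 0.16, adjusted p = 0.0444) passed more narrowly. Tmem140 lost its call without NC2, HFpEF1 or HFpEF2 (adjusted p = 0.276, 0.308 and 0.252) and Btnl9 without HFpEF2 (adjusted p = 0.0904). With DESeq2 neither passed (adjusted p = 0.367 for Tmem140 and 0.0593 for Btnl9). Samd5 had 0 to 5 UMIs per library in cells with a tip gene and did not pass (-1.42, SE 0.49, adjusted p = 0.0812). Of the 15 other capillary genes, 11 were lower and all 15 fitted values were below 0, with a median of -0.50, among them Lpl (-1.05) and Slc28a2 (-0.62). Lower levels were not limited to capillary genes. Of the 19 pan-endothelial genes, 9 were lower and 1 was higher, with a median of -0.27.

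Activated cells had lower levels of 5 of the 8 genes, where 1.85% of 10260 genes were lower and 5.71% higher. Tmem140 was at 149.5, 171, 146 and 102 CPM in cells with and 205, 239, 167 and 152 CPM in cells without an activation gene in NC1, NC2, HFpEF1 and HFpEF2 (log2 fold change -0.41, SE 0.09, adjusted p = 0.000471). It lost its call without HFpEF2 (adjusted p = 0.0766) and when 2 UMIs were asked for (adjusted p = 0.121), where the Btnl9 call was lost too (adjusted p = 0.0907). C1qtnf9 (-0.33, SE 0.07, adjusted p = 0.000106), Car4 (-0.31, SE 0.07, adjusted p = 0.000297), Btnl9 (-0.31, SE 0.06, adjusted p = 0.000191) and Timp4 (-0.28, SE 0.06, adjusted p = 0.000186) were lower in 4 of 4 libraries. Aqp1 (0.06, SE 0.05, adjusted p = 0.615), Rgcc (-0.0033, SE 0.05, adjusted p = 0.994) and Samd5 (-0.22, SE 0.21, adjusted p = 0.682) did not pass. Each of the 11 stress genes was higher in these cells, with Atf3 at 0.81 and Fosb at 0.65. Of the 15 other capillary genes, 6 were lower and 1 was higher, with a median of -0.15. The 1 that was higher is Hspb1, which is also among the 11 stress genes. Of the 19 pan-endothelial genes, 0 were lower and 3 higher.

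Interferon genes went with few differences. Timp4 was lower (-0.14, SE 0.03, adjusted p = 0.00169) and Rgcc higher (0.10, SE 0.03, adjusted p = 0.00415), where 0.887% of 10488 genes were lower and 2.43% higher. Both effects were small. Timp4 was at 1436 and 1531 CPM in NC1 cells with and without an interferon gene and at 444 and 494 CPM in HFpEF2. The Rgcc call was lost in 7 of 8 alternatives (adjusted p up to 0.702), among them those without NC1, NC2 or HFpEF2, and the Timp4 call without NC2 (adjusted p = 0.0785) and with DESeq2 (adjusted p = 0.0559). The other 6 genes did not pass, at -0.40 for Samd5 to 0.17 for Tmem140.

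**Figure D5:**
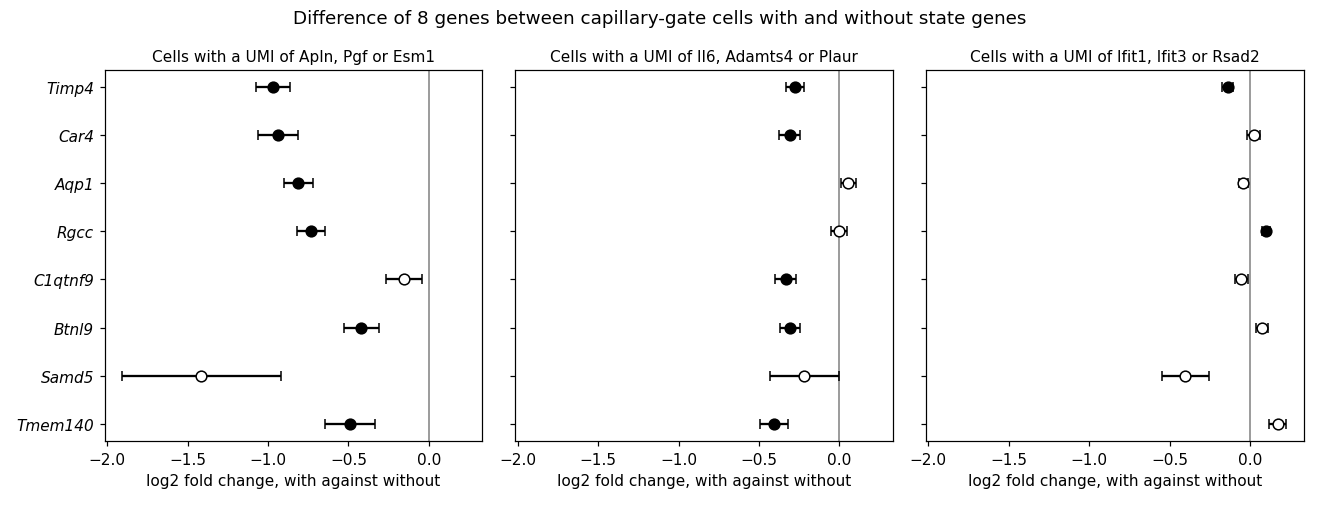
log2 fold change with its standard error (x axis) of each of the 8 genes between capillary cells with and without a UMI of the state genes named above each panel, within 4 libraries. Filled points passed an adjusted p of 0.05, which are 6 genes for the tip genes, 5 for the activation genes and 2 for the interferon genes.

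Cells of these states were more common in HFpEF for the tip and activation genes, and levels were also taken without cells that had a UMI of a state gene. Among the 58.6% to 70.3% of capillary cells that had no UMI of the 9 state genes, Timp4 was at 1562, 1141, 618 and 518 CPM in NC1, NC2, HFpEF1 and HFpEF2, or 42.05% of NC, against 41.2% over all capillary cells at 1000 UMIs. The median log2 fold change of the 8 genes was -0.51 in these cells, which were gated before the reduction. It cannot be set against the -0.45 above, for which cells were gated after the reduction. The percentages here are all of cells gated before it. Car4 was at 78.5% of NC without the state cells and at 73.0% with them, and Aqp1 at 64.7% and 64.1%. Cells without a UMI of a state gene may still belong to a state, and the part of the states in the diet difference was not tested.

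Of 15 other capillary genes, 0 passed edgeR's test in capillary cells, 4 had an unadjusted p under 0.05 (16.8% of all 12943 genes did), and DESeq2 called 2 (2.87% of 8317 genes). Their median log2 fold change was -0.09, with 9 of 15 below 0, from -0.76 for Ramp2 and -0.46 for Gpihbp1, the anchor of lipoprotein lipase, to 0.33 for Meox2 and 0.34 for Hspb1. Hspb1 is also on the list of stress and dissociation genes. Gpihbp1 was at 2583 and 2633 CPM in NC against 1799 and 2029.8 CPM in HFpEF, without overlap. Of 19 pan-endothelial genes, 0 passed, 1 had an unadjusted p under 0.05 and DESeq2 called 0, with a median of -0.09, from -0.34 for Tie1 and -0.33 for Klf2 to 0.31 for Ets1. In vein cells Gpihbp1 fell (log2 fold change -0.99) and Hspa1a and Hspa1b rose (1.52 and 1.74) by edgeR's test, the 3 calls it made over the 4 lists in the 3 gates under the diets. There DESeq2 called 3 other capillary genes and 0 of the stress genes, where it called 1.32% of 1591 genes. In vein cells the other capillary genes had a median of -0.27, and 6 of 15 had an unadjusted p under 0.05, as had 8.69% of all genes. The other capillary genes shared the vessel pattern, with 14 of 15 higher and Cxcl12 lower (-0.23) against artery cells, and 13 of 15 higher against vein cells.

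The 19 relatives of the members are genes of the same families, with the adiponectin receptors added. Under the diets 15 of them could be tested in capillary cells and 0 passed edgeR's test. An unadjusted p under 0.05 was found for 2, as for 16.8% of all genes, and DESeq2 called 1, where it called 2.87% of all genes. Fitted values ran from -0.77 for Adipor2, a receptor of adiponectin, to 0.72 for C1qtnf7, and Timp3, another metalloproteinase inhibitor, was at -0.06. Against artery cells, 2 of 16 relatives were higher and 8 lower, where 12.1% of all genes were higher and 15% lower. Among the lower was Timp2 (-1.62), so the inhibitors Timp2 and Timp4 went in opposite directions between these gates. Against vein cells, 3 of 16 relatives were higher and 4 lower, where 13% of all genes were higher and 14.9% lower.

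The genes most like the mean of the 8 over the 12 sums of library and gate were sought among 6002 genes of at least 20 CPM. Kank3, Ctnnbip1, Ssh2, Dok4 and Sertad1 had the highest Pearson's r, at 0.99, 0.95, 0.95, 0.94 and 0.94, over sums that share 4 libraries. Gpihbp1 stood 17th at 0.88 and Fabp4 45th at 0.83. Each member was set against the mean of the other members, without itself. By this measure C1qtnf9 (0.95), Timp4 (0.91), Rgcc (0.87) and Tmem140 (0.83) were close to that mean, Car4 (0.72) less so, and Aqp1 (0.28), Btnl9 (0.05) and Samd5 (-0.23) were not. These last 3 are the genes whose vessel pattern differed from that of the other 5.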

How the data were processed

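The authors trimmed reads with fastp, aligned and counted them with Cell Ranger 5.0.1 on mm10, and deposited whole-number UMI counts per gene and cell for each library, with no normalization. From these deposited counts, cells with more than 200 genes, under 20% mitochondrial UMIs and at least 3 EC UMIs were sorted into gates of at least 2 artery or vein marker UMIs, and counts were summed per library and gate. The 8 genes, the gates and the other gene lists were chosen with earlier results of these data known, and each of the 8 genes is named. Sums were tested in R 4.3.3 with edgeR 4.0.16 (quasi-likelihood test, TMM factors, filterByExpr, Benjamini-Hochberg adjustment, threshold 0.05), by diet over 4 sums per gate, and by gate (12 sums) or cell state (8 sums) with the library as a block. DESeq2 1.42.0, other gates, thinned cells and left-out libraries were alternatives. State cells were thinned to 1000 UMIs with Python 3.11.15. Capillary sums held 8322843 to 33745031 UMIs. Doublets were not called. Positions were matched to GENCODE for 31184 of 31253 gene IDs. The model fits were tested on simulated data. Genotype was not analysed.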

Additional observations from a re-analysis of the deposited data

How the results depend on the processing

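Across settings the counts of genes passing the diet test moved most, and the cause was not tested. In capillary cells (4 with all settings as reported) they were 239 with DESeq2, 1002 without the low-count filter, 9 in thinned cells, 29 without hemoglobin-rich and other-type cells, 1 with at least 6 EC UMIs and 16 to 129 without 1 library. In artery cells (2) they were 38, 194 and 5 for the first 3 of these, 51 with strict gates, and 16 to 193 without 1 library. In vein cells (33) they were 21 with DESeq2, 157 without the filter, 17 thinned, 21 with strict gates, 64 without other-type cells, and 90 to 173 without 1 library. With the library number as a replicate block 29 genes passed in capillary, 2 in artery and 123 in vein cells. The labels do not say that a number marks a shared mouse, batch or genotype. Over 12943 genes the libraries of like number did not deviate together (r = -0.08), although Scarb1 was higher in library 1 of both diets. This r cannot tell whether the number goes with genotype, since it weighs all genes alike and a genotype could move few of them.

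Against artery cells (3364 genes) 941 passed in thinned cells and 377 at 1000 to 2000 UMIs, and against vein cells (3458) 1122 and 440, with fewer UMIs in those sums. The Aqp1 difference to vein cells was -0.050 without TMM factors, -0.15 without other-type cells, -0.013 with 6 EC UMIs, and -0.0031 to 0.054 without 1 library.

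For activation genes (776) 261 passed when 2 UMIs were asked for, 415 with DESeq2 and 446 to 672 without 1 library. There Aqp1 was at -0.20 with 2 UMIs and Rgcc at 0.0043 with 700 UMIs per cell and at -0.058 to 0.071 without 1 library. For interferon genes (348) 219 passed with 700 UMIs, 129 with DESeq2 and 211 to 326 without 1 library, and Car4 was at -0.038 with 2 UMIs, -0.0022 without the filter and -0.037 to 0.086 without 1 library. For tip genes (448) 290 passed with 700 UMIs, 277 with 2 UMIs, 247 with DESeq2 and 293 to 354 without 1 library.

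The median diet difference of the 8 genes (-0.53) was -0.55 without the filter, -0.51 without other-type cells and -0.30 at 1000 to 2000 UMIs. It was -0.45 in cells thinned before gating, and -0.51 in cells thinned after gating and without state cells. Without 1 library it was -0.70 to -0.40. For the comparisons between gates the range of 1000 to 2000 UMIs, and for the diets the setting without mitochondrial genes, were chosen after seeing the data.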
